A study of Homo sapiens with 3 samples.

Results

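The genes described here form the YAP and TEAD pathway: the coactivators YAP1 and WWTR1 (which encodes TAZ), the DNA-binding factors TEAD1 and TEAD4, the inhibitory kinases LATS1 and LATS2, the junction protein AMOTL2, the LIM protein AJUBA, and the genes CCN1 and CCN2, which encode secreted proteins and are classic targets of the pathway. They were chosen by symbol, and all 10 were present among the 14949 genes of the table. Poly(A)-selected RNA of MIAPaCa-2, a human cell line from a pancreatic cancer, was sequenced in 3 libraries. The control library (sh-CTL) came from cells with a control short hairpin and the knockdown library (sh-METTL3) from cells with a hairpin against METTL3, both labelled as without treatment. The inhibitor library (sh-CTL + PLK1i) came from the control hairpin cells given NMS-P937, a PLK1 inhibitor, at 80 nM for 24 h. METTL3 is the methyltransferase that places N6-methyladenosine on RNA, and PLK1 is a mitotic kinase. No vehicle is named for the untreated libraries, and the sources used here do not say whether the knockdown cells were 1 clone or a pool. Each condition was sequenced once, so spread between cultures was not measured, conditions could not be tested against each other and no p-value was computed.

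YAP and TAZ have no DNA-binding domain and reach their genes through TEAD proteins. In the Hippo pathway the MST kinases activate LATS1 and LATS2, which phosphorylate YAP and TAZ and hold them in the cytoplasm. Angiomotins such as AMOTL2 bind YAP at junctions and on actin, AJUBA restrains LATS, and LATS2 and AMOTL2 are also target genes, which makes them negative feedback. RNA levels do not report the phosphorylation or location of YAP and TAZ.

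The promoters of the 10 genes were searched for the letters that TEAD proteins recognise. RefSeq promoter windows (GRCh38.p14, 250 bases before and 50 after each start site) matched 7 of the 10 genes, in 11 windows. TEAD1, TEAD4 and CCN1 were not matched. The TEAD core motif, searched as GGAATG on both strands, occurred in windows of 5 genes (YAP1, LATS2, AMOTL2, AJUBA and CCN2). These were 5 of the 11 windows, or 45.5%, against 14.0% of all 35116 windows. The CCN2 window held 3 copies, beginning 169, 104 and 95 bases before the start site, and 0.128% of all windows held as many. The CArG box of SRF was found in 0 of the 11 windows and in 1.29% of all windows. A match describes letters and is not a measured binding site. YAP1, LATS2, AMOTL2 and AJUBA, which also held the motif, had log2 changes of 0.09, 0.20, -0.06 and -0.02 in the knockdown library. CCN2 had one of -4.97. Whether the motif has a part in these changes was not tested. The whole stretch before the CCN2 start site is printed first because of its 3 copies, and 30-base stretches upstream of YAP1 and of the second listed start sites of AMOTL2 and AJUBA follow for comparison. All are on the coding strand, with the motif in capitals (CATTCC is GGAATG on the other strand).
CCN2 (chr6:131951373-131951622, minus strand): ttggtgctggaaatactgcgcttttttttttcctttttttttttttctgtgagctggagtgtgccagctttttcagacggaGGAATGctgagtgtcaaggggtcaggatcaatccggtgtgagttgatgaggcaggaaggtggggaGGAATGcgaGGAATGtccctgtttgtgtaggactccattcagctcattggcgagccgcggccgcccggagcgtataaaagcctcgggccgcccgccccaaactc
YAP1 (chr11:102110273-102110302, plus strand): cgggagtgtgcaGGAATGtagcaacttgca
AMOTL2 (chr3:134374499-134374528, minus strand): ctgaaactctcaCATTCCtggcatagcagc
AJUBA (chr14:22976884-22976913, minus strand): gggaagttggctGGAATGaagccaaagcaa

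Depth ranged from 37449352 to 47727493 reads in listed genes. METTL3, the target of the hairpin, had its low value in the knockdown library, at 1781 reads against 3378 in the control and 4223 in the inhibitor library. After scaling for depth its log2 changes were -1.25 (-1.34 to -1.17) for the knockdown and -0.02 (-0.08 to 0.05) for the inhibitor. Of 5 epithelial markers, KRT8, KRT18 and KRT19 were present at 3361 to 124197 reads, and EPCAM and CDH1 had no value here. Of markers of other cells, 0 of 6 acinar and endocrine genes and 2 of 5 stromal and immune genes (COL1A2 and CD68) had a value. COL1A2 was counted with 44101 control, 44201 knockdown and 44493 inhibitor reads, and CD68 with 1505, 3499 and 2875. In the control library KRT19 had 3361 reads and KRT18 43957, so the stromal gene COL1A2 was not at a trace level.

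Levels were compared between genes as RPKM, which divides reads by the length of the canonical transcript and by the library total. The highest of the 10 genes in the control library was WWTR1, at 71.3 RPKM, followed by CCN1 (33.8 RPKM) and TEAD4 (31.4 RPKM). AMOTL2 (24.7 RPKM), YAP1 (24.0 RPKM) and TEAD1 (22.8 RPKM) formed a middle group. LATS1 (9.28 RPKM), LATS2 (7.02 RPKM), AJUBA (4.29 RPKM) and CCN2 (4.0 RPKM) were the lowest. Neighbours in this order whose 95% counting intervals overlapped were CCN1 with TEAD4, AMOTL2 with YAP1, YAP1 with TEAD1, and AJUBA with CCN2. The WWTR1 level per length was 2.97 times that of YAP1 in the control library, 2.82 times in the knockdown library and 3.23 times in the inhibitor library. CCN1 took the sixth place in the knockdown library, at 17.5 RPKM, and was again the second in the inhibitor library, at 62.4 RPKM. CCN2 was the last of the 10 in the knockdown library, at 0.118 RPKM.

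**Figure D1:**
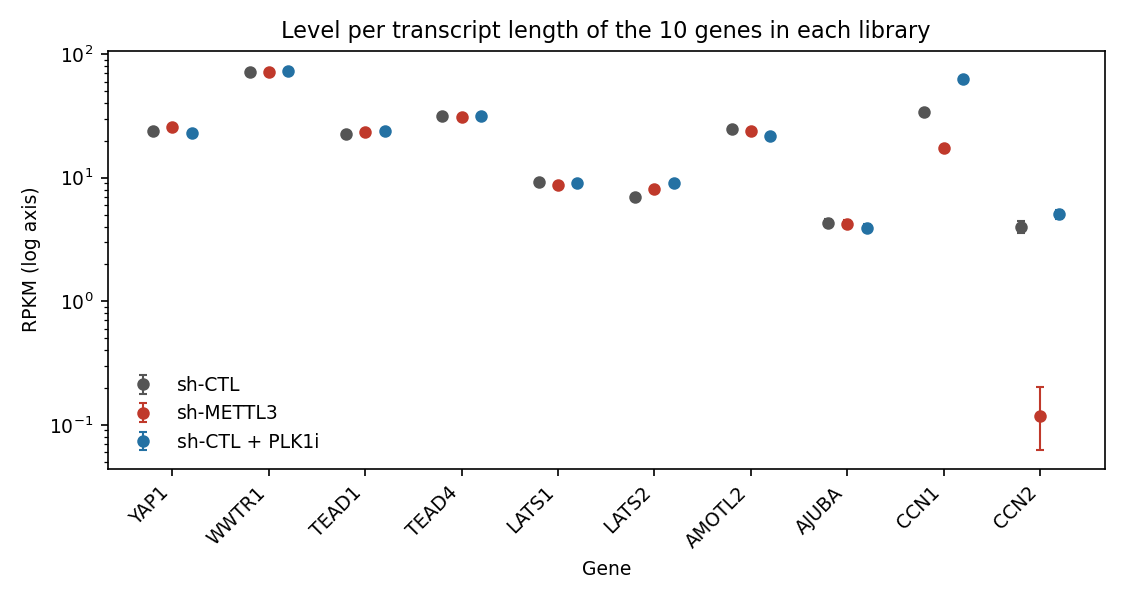
Level in RPKM (log axis) of the 10 genes, 1 point for each of the control, knockdown and inhibitor libraries, with bars for the 95% counting interval. The points of the first 8 genes lie close together, CCN1 spans 17.5 to 62.4 RPKM, and CCN2 stands at 0.118 RPKM in the knockdown library.

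The knockdown library was set against the control library to see what accompanies low METTL3. The secreted targets CCN1 and CCN2 were lower there, and the 8 other genes lay in a narrow range around no difference. Each change is the difference of log2(normalized count + 1), given with the 95% interval of the read ratio, which covers counting error only. A 2-fold difference on this scale was the limit for calling a gene.

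CCN2 (connective tissue growth factor, a protein of the extracellular matrix; ENSG00000118523, GRCh37, chromosome 6, 132269316 to 132272512, minus strand) was counted with 350 control, 13 knockdown and 563 inhibitor reads. Its normalized counts were 408, 12.1 and 518. The knockdown library stood far below the other 2, at 2.95% of the control (1.56% to 5.12%). This is a 33.9-fold lower count (19.5 to 64.3), with a log2 change of -4.97. Counting CCN2 itself, 10 of 11856 genes whose mean was 100 or more had a change this low.

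CCN1 (CYR61, a related matrix protein that binds integrins; ENSG00000142871, chromosome 1, 86046444 to 86050272, plus strand) was counted with 2884 control, 1875 knockdown and 6785 inhibitor reads. Its normalized counts were 3363, 1738 and 6246, so the knockdown library was the lowest and the inhibitor library the highest. In the knockdown library CCN1 stood at 51.7% of the control (48.7% to 54.8%), a log2 change of -0.95, which is just short of 2-fold. The level of CCN1 per length was 8.46 times that of CCN2 in the control library, 148 times in the knockdown library and 12.4 times in the inhibitor library. CCN3 to CCN6, the other genes of the family, had no value here.

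CCN2 was thus 1 of 10 genes past the 2-fold limit, in the lower direction. Over the whole table, 2.94% of genes were at least 2-fold lower and 3.42% at least 2-fold higher. The counting interval lay below 0 for 3 of the 10 genes (LATS1, CCN1 and CCN2), against 28.2% of the table, and above 0 for 2 (YAP1 and LATS2), against 27.1%. With upper-quartile scaling the interval of LATS1 included 0 and that of TEAD1 lay above 0, as it also did with scaling to library totals. At this depth a small difference between 2 libraries passes counting error in many genes.

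The coactivators and the TEAD factors differed little between these libraries. YAP1 (chromosome 11, 101981178 to 102104155, plus strand) was counted with 4847 control, 6476 knockdown and 5882 inhibitor reads, and its knockdown change was 0.09 (0.03 to 0.14). WWTR1 (chromosome 3, 149235022 to 149454501, minus strand), with 13442, 17025 and 17721 reads in the same order, had a knockdown change of 0.01 (-0.02 to 0.04). Both genes therefore lay close to the control. TEAD1 (chromosome 11, 12695968 to 12966284, plus strand), with 8039, 10393 and 10814 reads, had a change of 0.04 and an interval that included 0. The TEAD4 change (chromosome 12, 3068496 to 3149842, plus strand), on 2014, 2499 and 2585 reads, was -0.02 (-0.11 to 0.07).

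On the inhibitory side the values were also close to the control. LATS1 (chromosome 6, 149979289 to 150039241, minus strand), counted with 2558 control, 3016 knockdown and 3188 inhibitor reads, had a knockdown change of -0.09 (-0.17 to -0.02). LATS2 (chromosome 13, 21547175 to 21635725, minus strand), with 1458, 2104 and 2399 reads, had one of 0.20 (0.10 to 0.30). The level of LATS1 per length was accordingly 1.32 times that of LATS2 in the control library and 1.08 times in the knockdown library. AMOTL2 (chromosome 3, 134074189 to 134094321, minus strand), with 4499, 5442 and 5066 reads, had a knockdown change of -0.06, and its interval included 0. AJUBA (chromosome 14, 23440386 to 23451760, minus strand), with 669, 830 and 782 reads, had one of -0.02 (-0.17 to 0.13). Its exons overlap those of ENSG00000259132 on the same strand, counted with 234, 237 and 204 reads, so how reads were divided between the pair is uncertain. The target genes LATS2 and AMOTL2 did not have the low knockdown values of CCN1 and CCN2.

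**Figure D2:**
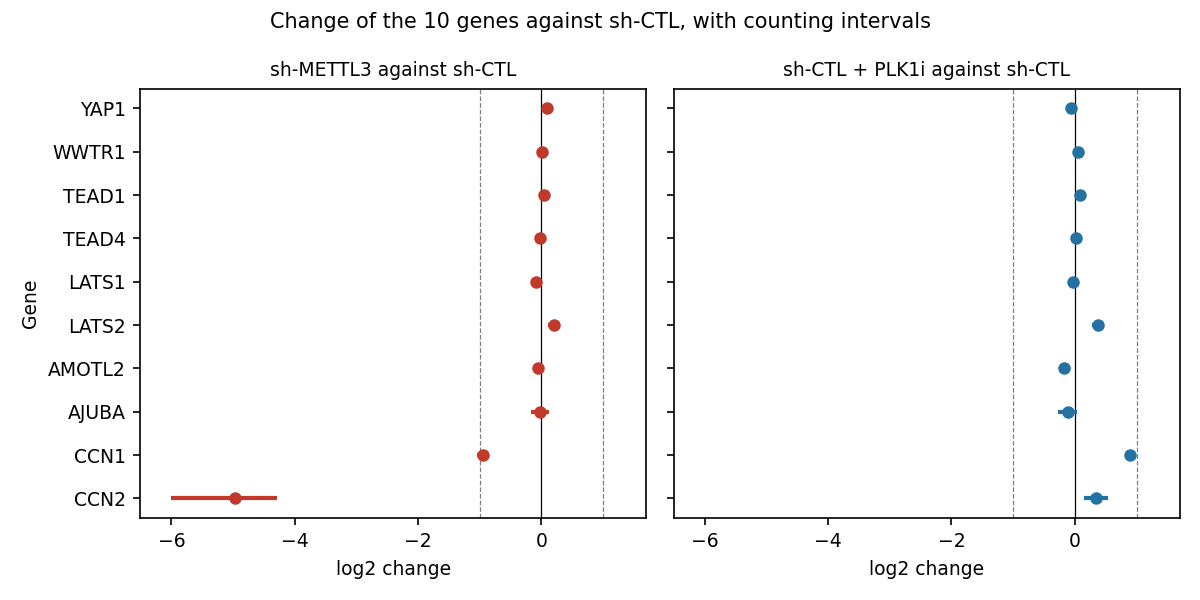
log2 change of the 10 genes against the control in the knockdown library (left) and the inhibitor library (right), with 95% counting intervals as bars and dashed lines at 2-fold. CCN2 at -4.97 is the point beyond a dashed line, and CCN1 lies at -0.95 on the left and 0.89 on the right.

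The inhibitor library was set against the same control library to see what accompanies a day of PLK1 inhibition. Its highest values belonged to 3 target genes. CCN1 was 1.86-fold higher (1.78 to 1.94), a log2 change of 0.89. Counting CCN1 itself, 43 of 11856 genes with a mean of 100 or more had a change this high. LATS2 stood at 129.9% of the control (121.7% to 138.7%), a change of 0.38, and CCN2 was 1.27-fold higher (1.11 to 1.46), a change of 0.34.

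AMOTL2, the remaining target among the 10, was on the other side, at 88.9% of the control (85.4% to 92.6%), a log2 change of -0.17. The change of YAP1 was -0.06 (-0.12 to -0.01), that of WWTR1 0.06 (0.03 to 0.09) and that of TEAD1 0.09 (0.05 to 0.13). Changes of 0.02 for TEAD4, -0.02 for LATS1 and -0.12 for AJUBA had intervals that included 0. The levels of LATS1 and LATS2 per length lay within each other's counting intervals, at 9.07 and 9.06 RPKM.

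In the inhibitor library 0 of the 10 genes passed the 2-fold limit, where 1.39% of the table was at least 2-fold higher and 1.13% at least 2-fold lower. The counting interval lay above 0 for 5 of them (WWTR1, TEAD1, LATS2, CCN1 and CCN2), against 23.1% of the table, and below 0 for 2 (YAP1 and AMOTL2), against 22.8%. The median change of the 10 genes was -0.02 for the knockdown and 0.04 for the inhibitor, and that of the table was 0.00 for both. Leaving out CCN1 and CCN2, the other 8 genes ran from -0.09 to 0.20 and from -0.17 to 0.38. Both comparisons share the control library, so opposite or equal signs in them are not independent.

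**Figure D3:**
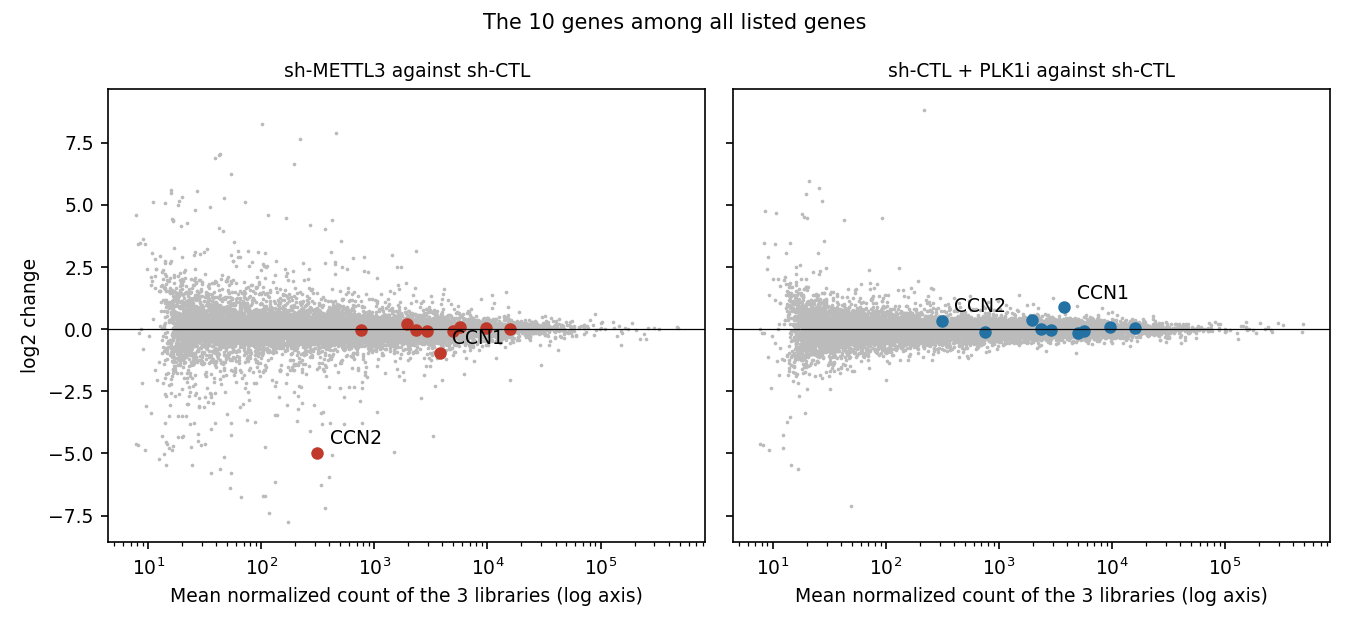
log2 change against the mean normalized count of the 3 libraries (log axis) for the 14949 genes (grey) and the 10 pathway genes (coloured), knockdown on the left and inhibitor on the right. CCN2, at a mean of 313, lies below most of the grey points on the left, and CCN1, at a mean of 3782, lies above most of them on the right.

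The wider pathway was followed through lists of genes by role, chosen like the 10 genes with earlier results known. The core kinase cassette (the MST kinases STK3 and STK4, the scaffold SAV1, the MOB1 adaptors and both LATS kinases) had 7 of 7 genes with a value and 0 past 2-fold. Its medians were 0.12 in the knockdown and 0.04 in the inhibitor library. SAV1 had the highest knockdown change, at 0.28 (0.14 to 0.41), and LATS1 the lowest. STK4 had the lowest inhibitor change, at -0.08, and LATS2 the highest.

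Genes that feed into LATS activation had a value for 14 of 15, with a knockdown median of -0.20, and 10 were below 0 where 49.8% of the table was. The whole counting interval lay below 0 for 9 of them and above 0 for 2, against 28.2% and 27.1% of the table. FRMD6, a FERM-domain protein of the cell cortex, was the gene past 2-fold, on 367 control, 223 knockdown and 491 inhibitor reads, with a change of -1.05 (-1.30 to -0.81). The kinase TAOK3 and the WW-domain protein WWC3, both named after their values were seen, had changes of -0.98 and -0.93. The highest was PTPN14, a phosphatase that binds YAP and is itself on the target list, at 0.42 (0.38 to 0.45). In the inhibitor library the median was -0.06, with NF2, the cortical protein merlin, the highest at 0.26 and the cadherin FAT4 the lowest at -0.41.

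The STRIPAK phosphatase complex and the LIM proteins, which restrain MST or LATS, had 11 of 11 genes with a value, 0 past 2-fold and medians of -0.02 and 0.00. LIMD1, a LIM protein related to AJUBA, was the highest in the knockdown library at 0.25, and the striatin STRN4 the lowest at -0.36. In the inhibitor library the focal adhesion protein ZYX was the highest at 0.38. AMOTL1, the other angiomotin with a value, had changes of -0.21 and 0.02. Among the coactivators, TEAD factors and VGLL cofactors, 7 of 10 had a value, with medians of 0.01 and -0.02. TEAD2 was the highest of them in the knockdown library at 0.15 and the lowest in the inhibitor library at -0.36, and TEAD3 was the lowest in the knockdown library at -0.14.

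Other YAP target genes were read from a signature of 22 genes, of which 19 had a value (ANKRD1, IGFBP3 and FOXF2 had none). In the knockdown library their median was 0.20, with 12 above 0 and 7 below. Leaving out CCN1, CCN2, LATS2 and AMOTL2, the median was 0.29 over 15 genes, 11 of them above 0. The whole counting interval lay above 0 for 8 of the 15 and below 0 for 4, against 27.1% and 28.2% of the table. RBMS3, an RNA-binding protein, was the highest at 0.90, on 32 control and 76 knockdown reads. The listed targets thus lay on both sides of the control level, beside 50.2% of the whole table above 0 and 49.8% below.

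CRIM1, a membrane protein that binds BMPs, was counted with 5781 control and 9417 knockdown reads, a change of 0.37 (0.33 to 0.42). MYOF, the membrane repair protein myoferlin, had 26051 and 32972 reads, a change of 0.01 (-0.01 to 0.03). The receptor kinase AXL had a change of -0.09 (-0.13 to -0.04). CRIM1, MYOF and AXL, which were named after their values were seen, thus span higher, equal and slightly lower. The lowest target besides CCN1 and CCN2 was GADD45A, a growth arrest gene, at -0.83 (-0.95 to -0.71), on 1299 control, 920 knockdown and 3245 inhibitor reads.

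In the inhibitor library the target list had a median of 0.13, with 13 of 19 genes above 0, against 50.5% of the table. Over the 15 genes left without the 4, the median was 0.12. NUAK2, a kinase of the AMPK family, was 1 of 19 past 2-fold, where 1.39% of the table was at least 2-fold higher. It was counted with 27 control and 84 inhibitor reads, a change of 1.27 (0.66 to 1.98). GADD45A was 1.97-fold above the control, a change of 0.98 (0.89 to 1.07), and so had the library order of CCN1. RBMS3 was the lowest at -0.25, on 32 and 34 reads.

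CCN1 and CCN2 also answer to serum as immediate early genes and to TGF-beta through SMAD proteins, so lists of both responses were set beside them. The immediate early list had a knockdown median of 0.18. Of its 14 genes, 9 were above 0 and 1 at least 2-fold higher, against 50.2% and 3.42% of the table. EGR2, a zinc finger factor, was the highest at 1.03 (-0.40 to 2.98), on 5 and 14 reads, and IER3 the lowest at -0.76. In the inhibitor library the median was 0.80, with 14 of 14 above 0 and 6 at least 2-fold higher, against 50.5% and 1.39% of the table. EGR2 was again the highest at 3.06 (1.97 to 4.94), on 5 and 61 reads, and IER2 the lowest at 0.01. The higher CCN1 level after the inhibitor therefore stood beside higher levels of this list, and the part of one in the other was not tested.

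The TGF-beta list had a knockdown median of -0.93, with 9 of 10 genes below 0. Of the 10, 4 were at least 2-fold lower and 1 at least 2-fold higher, against 2.94% and 3.42% of the table. The collagen gene COL1A1 was the lowest at -2.63 (-4.38 to -1.56), on 34 and 6 reads, and the matrix protein TGFBI the highest at 1.08 (0.97 to 1.20), on 800 and 2132 reads. SMAD7, an inhibitory SMAD, had a change of -2.53 (-3.80 to -1.66), on 50 and 10 reads. SKIL, a feedback repressor of SMAD proteins, had one of -1.55 (-1.75 to -1.37), on 776 and 332 reads. The receptor gene TGFBR2 was counted with 479 control, 3 knockdown and 587 inhibitor reads. SMAD7, SKIL and TGFBR2 were named after their values were seen. The low CCN1 and CCN2 levels thus stood beside low levels of this list, and the part of TGF-beta signalling in them was not tested. In the inhibitor library the list median was -0.04, with ID3, an inhibitor of helix-loop-helix factors, the lowest at -0.55.

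**Figure D4:**
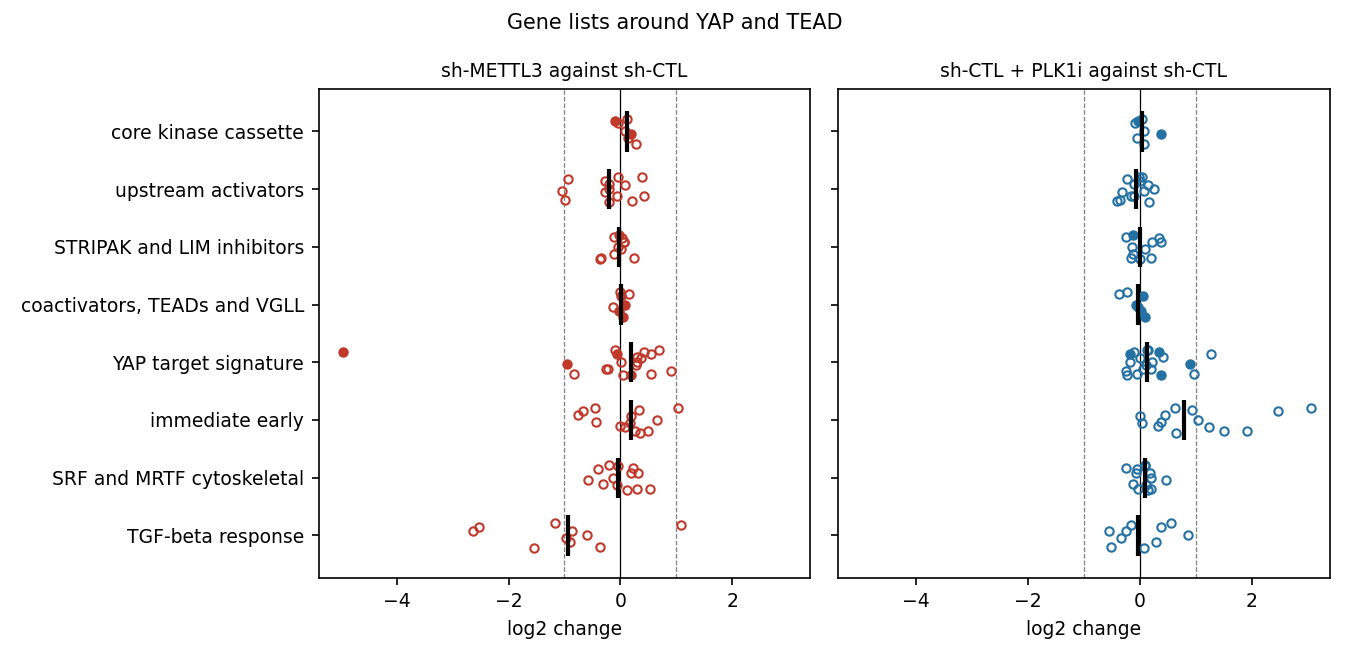
log2 change against the control of each gene of 8 lists, knockdown on the left and inhibitor on the right. Filled points are the 10 pathway genes, open points other genes, black bars list medians and dashed lines 2-fold. The TGF-beta list has a median of -0.93 on the left, and the immediate early list one of 0.80 on the right.

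To see whether a difference was shared along the chromosome, each of the 10 genes was set beside its neighbours, the 12 listed genes on either side with a mean of 50 or more. The 24 neighbours of CCN2 had a median knockdown change of -0.11, with 13 below 0, where 49.8% of the table was. CCN2 minus that median was -4.86. MED23 and STX7, which flank it, had changes of -0.18 and -0.29. Beyond MED23 followed AKAP7 at -1.25, on 213 control and 112 knockdown reads, and EPB41L2 at -0.54, and beyond STX7 followed SLC18B1 at 0.12 and RPS12 at 0.20. The lowest of the 24 was PTPRK at -6.15. For CCN1 the neighbour medians were -0.13 in the knockdown and 0.15 in the inhibitor library, and CCN1 minus these was -0.82 and 0.74. The neighbour medians of the other 8 genes lay between -0.10 and 0.04 in the knockdown library.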

How the data were processed

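Libraries were grouped by their titles and treatment labels. One table of log2 values was deposited by the authors. The submitters' processing notes name FastQC 0.11.9, STAR 2.7.10, RSEM 1.3.3 and hg19, and the normalization is not given in the sources used here. The deposited log2 values behaved as log2(normalized count + 4), with a minimum of 2. Undoing this and dividing by the value of 1 read (1.17, 0.927 and 0.921 for control, knockdown and inhibitor) gave reads, and of the values below 2000 reads, 100% were whole to a tolerance of 0.1. Larger values were rounded to whole reads.

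Changes were differences of log2(normalized count + 1), which understate low genes. All 14949 genes had a mean of at least 1. Intervals were exact 95% Clopper-Pearson intervals of the read ratio, and exact Poisson intervals for RPKM. They cover counting error only, with each read taken as an independent molecule. Amplified reads are not independent molecules, so the intervals can be too narrow. With 1 library per group no count model was run. Lengths and GRCh37 positions came from GENCODE 44. The recovery of reads and changes was tested on simulated data with 200 changed genes. Python 3.11.15, numpy 2.4.6 and scipy 1.17.1 were used. Alternatives were other pseudocounts, scalings, filters, limits, interval levels, lists and numbers of neighbours.

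The 10 genes and all lists were chosen with earlier results of these data known. Genes named were the 10, the genes of the pathway lists at least 2-fold different, the highest and lowest of each list, and METTL3 and PLK1 as checks (PLK1 was counted with 6910 control, 5638 knockdown and 9249 inhibitor reads). Exceptions are stated beside their values, and some genes that this rule names are not reported here.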

Additional observations from a re-analysis of the deposited data

How the results depend on the processing

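Of 358 values recomputed under alternatives for 70 results, 349 stayed within the interval or within 1.5 times the count of the main value, and no value whose main interval left out 0 changed sign. Among values near 0, 4 changed sign. Without the 10 genes the inhibitor medians became 0.05 in place of -0.00 for STRIPAK and LIM proteins and 0.02 in place of -0.08 for angiomotins, and the knockdown median of coactivators, TEAD and VGLL genes became -0.00 in place of 0.01. The other was TEAD1 minus its neighbours, below. The 10 genes kept the sign of their change in 100 of 100 recomputations with other pseudocounts and scalings. At a 1.5-fold limit the genes called among the 10 were 2 in place of 1 for the knockdown and 1 in place of 0 for the inhibitor, and those of all lists were 22 in place of 8 and 14 in place of 7. Requiring a mean of 50 left fewer genes and called 5 list genes in place of 8 for the knockdown. Upper-quartile scaling gave an epithelial marker median of -0.11 in place of -0.09 for the inhibitor. With 25 neighbours on either side, the knockdown change minus the neighbour median was -0.96 for CCN1, 0.05 for TEAD1 (in place of -0.00) and 0.02 for WWTR1. With 99% intervals LATS1 (knockdown) and YAP1 (inhibitor) included 0, which left 4 and 6 of the 10 genes. Without the 10 genes the CCN family list had no gene left. No paired analysis was possible because each group had 1 library, and for the same reason no library could be left out. The knockdown value of CCN2 rests on 13 reads, which limits its fold to between 19.5 and 64.3 from counting alone.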

Other observations

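The actin-responsive genes of SRF and its MRTF cofactors, a further route to CCN1 and CCN2, had medians of -0.03 for the knockdown and 0.09 for the inhibitor over 13 genes, with 0 past 2-fold. FHL2, a LIM-domain cofactor, was the highest for the knockdown at 0.52 (0.45 to 0.60). TAGLN, an actin-binding protein of contractile cells, was the lowest for the knockdown at -0.57 (-0.73 to -0.42) and the highest for the inhibitor at 0.46 (0.34 to 0.59). Its reads were 787 control, 665 knockdown and 1375 inhibitor, and its normalized counts had the library order of CCN1 and GADD45A. ACTA2 was the lowest for the inhibitor at -0.24, on 72 and 77 reads.

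Among the 24 chromosomal neighbours of YAP1, the collagenase gene MMP1 had a change of -5.97 for the knockdown and 1.26 for the inhibitor, and the neighbour medians were -0.10 and 0.06. The keratins KRT8, KRT18 and KRT19 had knockdown changes of 0.26, 0.27 and 0.43. Of the stromal and immune markers, CD68 had changes of 0.89 and 0.59, and COL1A2 one of -0.33 in both comparisons.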
